A study of Mus musculus with 36 samples.

Results

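The use of exons and exon junctions was compared among 3 brain regions, cortex (Ctx), hippocampus (Hip) and amygdala (Amg), of mice treated with vehicle (Ctrl). Each Ctrl region was measured on 3 exon-level arrays, which gives 9 arrays out of the 36 samples in the series. The array holds probe selection regions (PSRs) and junction probe sets (JUCs), the latter for the joint between a pair of exons. A PSR covers an exon, part of an exon or, as the study describes for Lcn2, a stretch of intron. No placement of PSRs on exons was available here, so a called PSR is not known to be an exon. PSRs and JUCs with 1 gene symbol were kept for genes with at least 5 PSRs and a gene mean of at least 8 on the log2 scale, where the gene mean is the mean of all PSRs of the gene over the 9 arrays. These conditions left 255105 probe sets (146766 PSRs and 108339 JUCs) out of 719071 on the array, and 6837 genes out of 31366 symbols with a PSR. Of the 18201 symbols with at least 5 PSRs, 11364 had a gene mean under 8. The gene closest to the limit on the inside was Gstm4, with a gene mean of 8.0003, and the closest on the outside was Sil1, with 8.0000. For every probe set the gene mean on the same array was subtracted from its log2 signal. The difference, called the splicing index, says how strongly a PSR or junction was read relative to the PSRs of its own gene.

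The mice were male C57BL/6 animals, 8 weeks old, that were injected intraperitoneally with Intralipid, a lipid emulsion, each morning and evening for 10 days. At the end the mice, also those given diazepam, were anaesthetised with medetomidine, midazolam and butorphanol together and perfused with artificial cerebrospinal fluid. The regions were punched from coronal brain slices, and an input of 100 ng RNA from each was hybridised to the GeneChip Mouse Transcriptome Array 1.0. The group is given as 3 mice, so arrays of different regions may come from the same mouse, but the labels do not say which do, and the tests treat the 9 arrays as independent. Other mice that received diazepam (DZP) on the same schedule gave 9 further exon-level arrays, which were used only as arrays that had no part in the choice of genes. The samples are bulk tissue, in which fewer cells of a type and less RNA per cell cannot be told apart.

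Most genes of neurons give several mRNAs. Cassette exons are kept or skipped under the control of RNA-binding proteins such as the Rbfox, Nova, Ptbp, Celf and Khdrbs families, and many long neuronal genes also start at alternative promoters or end at alternative polyadenylation sites. Synaptic receptors, ion channels, adhesion molecules and scaffold proteins are well known for isoforms that differ between brain regions and neuron types. On an exon array, a skipped exon lowers its PSR and the junctions that flank it, whereas an alternative start or end moves a row of neighbouring PSRs together.

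Rapgef5, which encodes a guanine nucleotide exchange factor for the small GTPase Rap, and Cacnb2, which encodes an auxiliary beta subunit of voltage-gated calcium channels, gave large region differences, described below, at PSR number 14 of 31 and number 4 of 30 from the 5′ end. RefSeq lists starts far apart for both genes, and the windows around them are shown because neighbouring PSRs at these points differed in the order of the regions. In Cacnb2 the gene mean moved by more than this neighbouring PSR. Each window holds the 250 bases before and the 50 bases after a RefSeq start in build GRCm38.p6, and CG pairs are in capitals.
Rapgef5 chr12:117516276-117516575, plus strand: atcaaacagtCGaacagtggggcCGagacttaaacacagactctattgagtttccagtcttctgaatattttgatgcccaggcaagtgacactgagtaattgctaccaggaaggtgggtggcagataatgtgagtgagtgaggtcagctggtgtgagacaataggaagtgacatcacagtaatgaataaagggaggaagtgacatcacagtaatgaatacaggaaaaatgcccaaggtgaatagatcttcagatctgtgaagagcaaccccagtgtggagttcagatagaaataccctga
Rapgef5 chr12:117533678-117533977, plus strand: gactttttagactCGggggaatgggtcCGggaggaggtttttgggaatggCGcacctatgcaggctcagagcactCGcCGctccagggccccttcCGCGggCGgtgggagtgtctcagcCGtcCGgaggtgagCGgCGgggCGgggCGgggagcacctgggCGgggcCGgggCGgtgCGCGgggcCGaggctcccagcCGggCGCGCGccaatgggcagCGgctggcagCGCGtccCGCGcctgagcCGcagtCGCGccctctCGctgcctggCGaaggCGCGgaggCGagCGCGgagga
Cacnb2 chr2:14604056-14604355, plus strand: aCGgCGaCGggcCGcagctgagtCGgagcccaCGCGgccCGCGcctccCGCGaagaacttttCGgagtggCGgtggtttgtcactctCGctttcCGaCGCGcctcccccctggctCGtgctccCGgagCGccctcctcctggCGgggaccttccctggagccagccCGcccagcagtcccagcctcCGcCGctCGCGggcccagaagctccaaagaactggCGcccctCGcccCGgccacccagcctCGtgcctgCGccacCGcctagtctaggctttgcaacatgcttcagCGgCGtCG
Cacnb2 chr2:14823842-14824141, plus strand: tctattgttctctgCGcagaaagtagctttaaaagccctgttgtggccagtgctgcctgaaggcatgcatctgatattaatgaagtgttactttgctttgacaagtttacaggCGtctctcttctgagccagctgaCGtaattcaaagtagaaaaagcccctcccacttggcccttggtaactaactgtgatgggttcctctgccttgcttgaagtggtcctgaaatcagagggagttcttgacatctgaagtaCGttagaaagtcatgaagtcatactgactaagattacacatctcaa

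The windows differ in their content of CG pairs. The upstream Rapgef5 window holds 2 CG pairs and the downstream one 39, whereas the upstream Cacnb2 window holds 35 and the downstream one 4. Over all 32851 windows of 300 bases in the table, the median was 7 CG pairs, with quartiles of 3 and 20. The TATA motif TATAAA, searched on both strands, occurs in none of the 4 windows and in 13.6% of all windows. The files name no genome build for the probe sets, so the distance of a PSR from these starts is not given.

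Levels of whole genes separated the regions as labelled. Of the 15 hippocampal marker genes measured, 13 were highest in Hip, and of the 15 amygdala markers, 13 were highest in Amg. Cortical markers were highest in Ctx for 7 of 13 genes. The Amg arrays also had the highest level of 13 of 14 striatal markers, with a list mean of 7.90 to 8.71 against 6.70 to 6.99 in the other regions. The mean of the choroid plexus and ependymal markers was 5.65 to 5.68 on the Ctx arrays but spread from 6.10 to 7.64 on the Hip arrays and from 6.05 to 7.59 on the Amg arrays. Oligodendrocyte and myelin genes were highest in Hip for 17 of 18 genes, with a list mean of 10.19 to 10.49 against 9.44 to 9.94 in the other regions. Endothelial and mural markers were highest in Ctx for 13 of 14 genes (9 without overlap), with 8.64 to 8.69 in Ctx, 8.31 to 8.39 in Hip and 8.12 to 8.44 in Amg. Microglia markers were highest in Amg for 9 of 11 genes (2 without overlap), at 7.50 to 7.66 against 7.41 to 7.61 elsewhere. For comparison, the gene mean differed among regions in 64.5% of all 6837 genes tested (limma moderated F test). Of these, 40.9% were highest in Ctx, 21.8% in Hip and 37.3% in Amg. Highest without overlap in the region named above were 11 hippocampal, 11 amygdala, 7 cortical and 12 striatal markers and 11 oligodendrocyte and myelin genes. Markers were counted whether called or not and without the limit on the gene mean, unlike the shares of called genes. The share of all genes without overlap is not given. The part of these cell differences in the results below was not tested. Array medians lay between 6.91 and 6.94, and the correlation of signals between arrays, across the tested probe sets, was 0.9879 to 0.9905 within a region and 0.9666 to 0.9790 between regions.

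The splicing index differed among the 3 regions at a minority of probe sets, which lay in most genes. In the joint test (limma moderated F test on the splicing index, Benjamini-Hochberg adjustment over all probe sets, adjusted p below 0.05), 20946 of 255105 probe sets were called (8.21%). Junctions were called more often than PSRs, with 10914 JUCs (10.1%) against 10032 PSRs (6.84%). The calls fell in 4971 of 6837 genes (72.7%). For each called probe set, every array of the region with the highest mean index lay above every array of the region with the lowest, which was also true of 44.1% of all probe sets tested. The difference between the highest and the lowest region, termed the index range, had a median of 1.02 among called probe sets and of 0.35 among all. It reached 1 (a 2-fold change relative to the gene) in 10876 called probe sets and 2 in 1377. With single arrays left out, the joint test called between 12111 (without Ctx 3) and 15592 probe sets.

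Each pair of regions differed. Hip differed from Ctx in 12215 probe sets (4.79%), of which 6666 had the higher index in Hip (2.61%) and 5549 in Ctx (2.18%). Amg differed from Ctx in 13481 probe sets (5.28%), with 6251 higher (2.45%) and 7230 lower (2.83%) in Amg. Amg and Hip differed in 8809 (3.45%), with 3600 higher (1.41%) and 5209 lower (2.04%) in Amg. The pairwise tests share arrays, so the counts are not independent of each other. Their order depended on the genes tested, since genes of even level, defined below and fitted alone, gave 385 calls for Hip against Ctx, 1724 for Amg against Ctx and 804 for Amg against Hip. Without Hip 1 the counts fell to 5537 for Hip against Ctx and 2905 for Amg against Hip, and without Ctx 3 to 6511 for Amg against Ctx. Among the called probe sets the highest index was in Ctx for 36.4%, in Hip for 35.7% and in Amg for 27.9%.

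The share of calls depended strongly on whether the whole gene differed among regions. Where the gene mean ranged over less than 0.25, 3.58% of probe sets were called, and where it ranged over 1 or more, 29.2%. By the level of the probe set itself the share moved less, from 11.7% under a level of 6 to 6.10% at 16 or more. The gene mean itself differed among regions in 4413 of 6837 genes (64.5%).

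**Figure D1:**
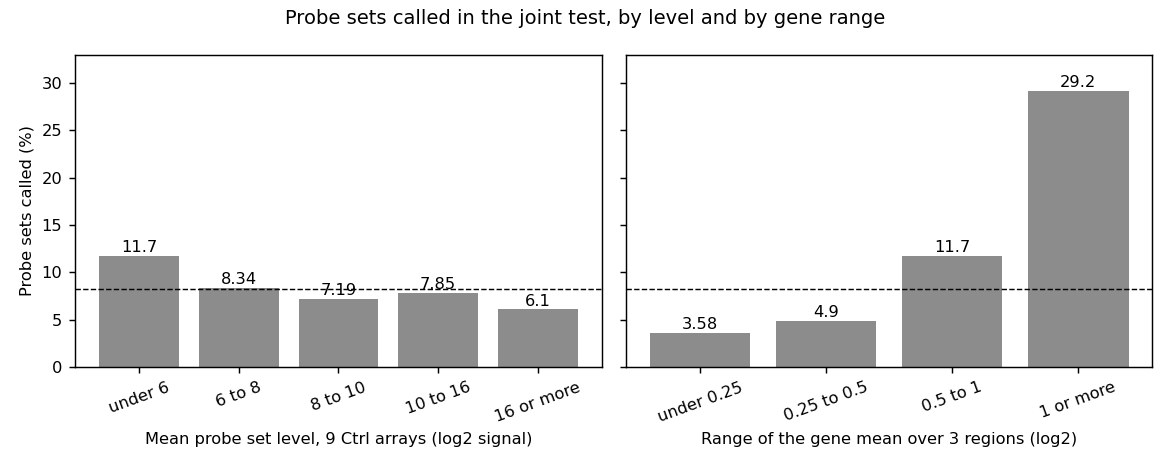
Percent of probe sets called in the joint test on the 9 Ctrl arrays, by the mean log2 signal of the probe set (left) and by the range of the gene mean over the 3 regions (right); the dashed line is the 8.21% called among all probe sets. The bars lie between 6.10% and 11.7% by level and rise from 3.58% to 29.2% with the range of the gene mean.

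A splicing index can move because the probe set moved or because the rest of the gene did. Among called PSRs with an index range of 1 or more, the gene mean moved by more than the probe set in 2068 of 4142 (49.9%), and among JUCs in 2188 of 6734 (32.5%). The probe set and its gene moved in opposite directions in 1606 of these PSRs and 3577 of these JUCs. In genes whose mean ranged over 1 or more, the gene mean moved by more in 62.3% of cases. Genes with a gene mean that ranged over at most 0.5, called genes of even level here, are therefore given separately. They numbered 4891, of which 3207 held a called probe set (65.6%), and 7485 of their 180663 probe sets were called (4.14%). When the even genes were fitted and adjusted alone, 1776 probe sets in 1242 genes were called (0.983%), all of them also called in the fit of all genes. Strong cases with a range of 1 or more, a level of at least 8 in each region and no array at 16 or more numbered 1491 in 1065 genes of even level in the fit of all genes, and 760 in the fit of even genes alone.

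The DZP arrays, from other mice, were tested in the same way. There 12579 probe sets were called (4.93%), and 6647 were called in both sets of arrays, which is 31.7% of the Ctrl calls and 52.8% of the DZP calls. With single DZP arrays left out, the DZP count lay between 4061 (without Ctx 1) and 18464 (without Hip 3), so these shares depend on single arrays. Of these 6647, 4928 (74.1%) had the same highest and the same lowest region. The widest Ctrl difference had the same sign in DZP for 91.2% of the Ctrl calls, against 68.4% of all probe sets tested. In genes of even level, 4163 of 180663 probe sets were called in DZP (2.3%). Calls in genes of even level were called in DZP less often, 14.2% of 7485, than calls in the other genes, 41.5% of 13461. The test of whether the region differences depended on treatment (limma, interaction of region and treatment) called 0 of 255105 probe sets (0%), with 27289 at an unadjusted p below 0.05. That number is larger than this threshold would give with no interaction at all. The lack of calls therefore does not show that the region differences were the same in both treatments.

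The rule named a PSR of Cacnb2 from the list of voltage-gated channels. The signal of PSR0200001099.mm.1, number 4 of 30 from the 5′ end, was 10.19, 10.14 and 9.55 on the Ctx arrays, 14.63, 14.20 and 14.14 on the Hip arrays, and 12.97, 13.16 and 13.41 on the Amg arrays. The regions did not overlap, and Hip lay above Amg and both far above Ctx. The gene mean moved much less, from 9.20 in Ctx to 10.26 in Hip and 9.92 in Amg, so that the index was 3.31 ± 0.20 (SE, n = 3 arrays per region) higher in Hip than in Ctx, a 9.88-fold difference relative to the gene (limma, adjusted p = 0.00014). In DZP the mean index was 0.70 in Ctx, 4.02 in Hip and 3.54 in Amg.

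The Cacnb2 junctions split in the same way. JUC0200000475.mm.1 read 4.32 in Ctx, 9.20 in Hip and 7.50 in Amg, near the background mean of 4.03 to 4.15 in Ctx, and JUC0200000476.mm.1 read 6.57, 10.34 and 9.26. The opposite order was seen for JUC0200000490.mm.1, with 9.03 in Ctx, 7.03 in Hip and 7.64 in Amg. The neighbouring PSR number 5 had levels of 7.55 in Ctx and 7.06 in Hip, and its index was 1.54 ± 0.16 higher in Ctx than in Hip. More of this index difference came from the gene mean, 9.20 in Ctx and 10.26 in Hip, than from the PSR. In all, 3 of 30 PSRs and 4 of 23 JUCs of Cacnb2 were called.

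Grin1, which encodes the obligatory subunit of NMDA receptors, is known for cassette exons that change the extracellular and the intracellular end of the receptor. Its junction JUC0200013104.mm.1 read 13.29, 12.87 and 13.11 in Ctx, 10.66, 10.76 and 10.51 in Hip, and 7.96, 7.47 and 8.03 in Amg. The 3 regions were fully separate, in steps of more than 2 on the log2 scale. Relative to the gene mean, which differed by only 0.46 between the same regions, the junction was 4.81 ± 0.21 lower in Amg than in Ctx (28.0-fold, adjusted p = 0.00011). PSR0200025917.mm.1, number 7 of 36 from the 5′ end, followed the same order, with 13.97, 13.82 and 13.70 in Ctx, 12.35, 11.65 and 11.74 in Hip, and 10.91, 10.72 and 10.81 in Amg. Its index differed by 2.56 ± 0.17 between Ctx and Amg (adjusted p = 0.00018). A further junction, JUC0200013103.mm.1, fell from 12.54 in Ctx to 10.69 in Hip and 9.76 in Amg. Only 3 of 36 PSRs and 5 of 26 JUCs of Grin1 were called, and both named probe sets were called with the same order in DZP.

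Synpr encodes synaptoporin, a membrane protein of synaptic vesicles, and gave the widest junction difference of the named probe sets. JUC1400000519.mm.1 read 9.34, 9.23 and 7.69 in Ctx, 5.39, 5.61 and 4.54 in Hip, and 11.03, 11.62 and 10.90 in Amg. Hip arrays were the lowest and Amg arrays the highest without overlap, although the gene mean was 8.62 in Hip and 8.58 in Amg. The index thus differed by 6.05 ± 0.37 between Amg and Hip (66.3-fold, adjusted p = 0.00051). PSR1400000852.mm.1, number 6 of 15 from the 5′ end, moved alongside, at 8.46 in Ctx, 6.55 in Hip and 11.16 in Amg. PSR number 3 went the other way, at 6.51 in Ctx, 8.03 in Hip and 5.63 in Amg, and its index was 2.37 ± 0.24 higher in Hip than in Amg.

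**Figure D2:**
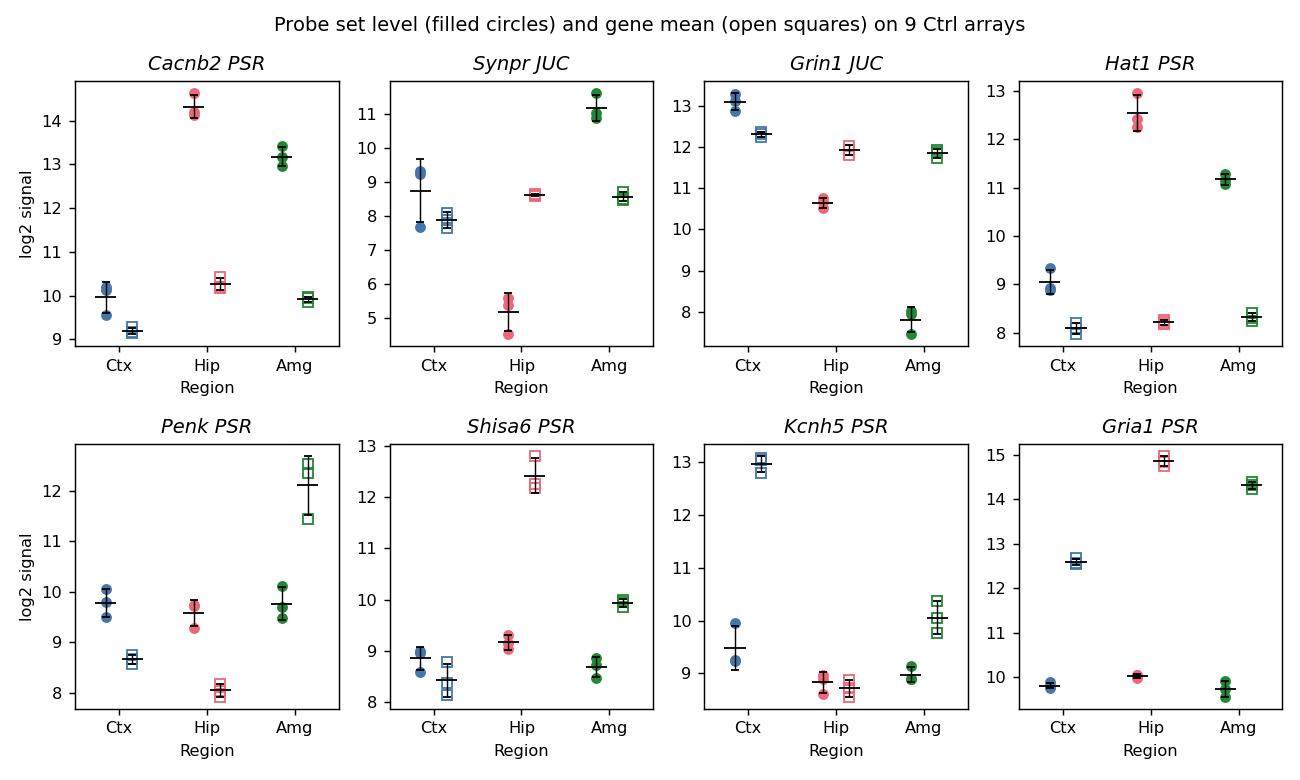
Log2 signal of a probe set (filled circles) and the gene mean over all PSRs of its gene (open squares) on each of the 9 Ctrl arrays for 8 named probe sets, with the mean and SD (n = 3 arrays per region). In the upper row (Cacnb2, Synpr, Grin1, Hat1) the probe set moves by more than the gene mean, which still ranges over 1.06 in Cacnb2 and 0.73 in Synpr, and in the lower row (Penk, Shisa6, Kcnh5, Gria1) the gene mean moves by more than the probe set.

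Junctions of other genes differed between regions by 4 or more on the log2 scale. The Dlgap3 junction JUC0400005909.mm.1, in the gene of the postsynaptic scaffold SAPAP3, read 9.04, 10.62 and 9.85 in Ctx, 3.31, 4.25 and 3.67 in Hip, and 4.41, 5.14 and 4.30 in Amg. Its Ctx arrays stood more than 3 log2 units above all others. The measured index difference of Ctx over Hip was 5.21 ± 0.38 (adjusted p = 0.00026), but the Hip arrays were at the background mean, so the size is a lower bound. The Cacna1a junction JUC0800003804.mm.1, in the gene of the pore-forming subunit of P/Q-type calcium channels, read 10.93, 11.77 and 11.95 in Ctx, 7.70, 7.25 and 8.03 in Hip, and 6.34, 6.35 and 5.37 in Amg. Ctx was again the highest, by 4.21 ± 0.31 over Amg relative to a gene mean that was itself 1.32 lower in Amg. The Auts2 junction JUC0500016411.mm.1 had the reverse order. Auts2 encodes a nuclear protein of neuronal development, and the junction read 3.72, 3.91 and 3.88 in Ctx, 7.82, 7.76 and 8.14 in Hip, and 8.78, 8.14 and 8.14 in Amg. Here the Ctx arrays were near the background mean, and the Hip and Amg arrays met at 8.14, so that a difference from Ctx is a lower bound as well.

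Both phosphodiesterase genes named by the rule, Pde4d and Pde10a, differed between Ctx and Amg. A Pde4d PSR read 9.15, 9.46 and 9.08 in Ctx, 5.77, 6.61 and 6.87 in Hip, and 5.46, 6.00 and 6.38 in Amg, and 23 of 53 Pde4d PSRs were called. Ctx was above the other regions on every array (index difference Ctx over Amg 2.66 ± 0.29, adjusted p = 0.0014). Pde10a encodes a phosphodiesterase that is most abundant in striatal neurons. Its PSR1700000770.mm.1 was highest in Ctx, with 11.19, 11.91 and 11.79 against 9.21, 9.41 and 10.13 in Amg. Its junction JUC1700000446.mm.1 was highest in Amg, with 9.96, 11.77 and 8.87 against 5.42, 4.52 and 5.79 in Ctx. The PSR and the junction thus had opposite orders, and 20 of 44 Pde10a PSRs were called. The Amg arrays also had the higher striatal marker level given above, whose part in these values was not tested.

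The adhesion molecules named by the rule differed most at 1 end of the gene. In Cntnap2, which encodes the neurexin-like protein CASPR2, the PSR0600003850.mm.1 read 9.04, 9.09 and 8.80 in Ctx, 9.88, 9.58 and 10.04 in Hip, and 12.13, 11.73 and 11.48 in Amg. Amg lay above both other regions by more than 1 log2 unit (index difference Amg over Ctx 2.44 ± 0.17, adjusted p = 0.00023). PSRs 24 to 27 of 28 from the 5′ end were all called, with mean levels of 10.63 in Ctx, 10.84 in Hip and 12.16 in Amg, whereas 0 of PSRs 1 to 23 were called, with 11.73, 11.65 and 11.90. Tenm3 encodes teneurin 3, a synaptic adhesion molecule, and differed at the opposite end. Its PSRs 1 and 2 of 39 from the 5′ end averaged 6.84 in Ctx, 9.99 in Hip and 9.18 in Amg, against 9.76, 10.65 and 9.91 for the remaining 37. PSR number 1 read 6.57, 6.07 and 6.12 in Ctx, 9.53, 10.45 and 10.48 in Hip, and 9.44, 9.43 and 8.66 in Amg (index difference Hip over Ctx 2.89 ± 0.19, adjusted p = 0.00018). The groups of PSRs in this paragraph were chosen after their values were seen and carry no test of their own.

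Osbp2, which encodes an oxysterol-binding protein, also differed between its 5′ end and the rest, a split chosen after its values were seen. PSRs 1 and 2 from the 5′ end averaged 7.93 in Ctx, 10.19 in Hip and 8.70 in Amg, while the 20 PSRs after them averaged 10.84, 9.90 and 8.99. The first PSRs were thus highest in Hip and the rest highest in Ctx. The junction JUC1100010643.mm.1 was 10.68, 10.98 and 10.99 in Ctx, 14.69, 14.41 and 14.07 in Hip, and 11.62, 11.96 and 11.70 in Amg (index difference Hip over Ctx 4.16 ± 0.15, adjusted p = 3.3e-05).

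Of the cytoskeletal genes, Macf1 and Ank3 had the widest PSR differences. Macf1 encodes a large protein that links microtubules and actin. Its PSR0400028219.mm.1 read 11.06, 11.50 and 11.23 in Ctx, 8.21, 8.54 and 7.80 in Hip, and 7.73, 8.12 and 7.96 in Amg. Ctx stood apart from the other regions, which overlapped (index difference Ctx over Amg 3.47 ± 0.22, adjusted p = 0.00015). It was 1 of only 2 called PSRs out of 110, beside 18 called junctions out of 117. Ank3 encodes ankyrin-G, the organiser of the axon initial segment, and its mean was 12.26 in Ctx, 12.22 in Hip and 12.10 in Amg. In order of identifier, PSRs 3 to 7 of 109 averaged 11.55 in Ctx, 12.91 in Hip and 12.93 in Amg, while PSRs 9 and 10 averaged 13.08, 11.40 and 11.27. PSR1000004534.mm.1 read 13.02, 13.44 and 13.46 in Ctx against 11.09, 11.12 and 11.35 in Hip (index difference 2.09 ± 0.15, adjusted p = 0.00026). Between these stretches, close in identifier order, the order of Ctx and the other regions was thus reversed. These stretches of Ank3 were chosen after their values were seen.

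Rapgef5 had the highest share of called PSRs among genes of even level with at least 10 PSRs, 21 of 31, and 15 of these were called in DZP with the same order of regions. Its gene mean was nearly the same in Ctx (10.68), Hip (10.87) and Amg (10.53). PSRs 5 to 13 from the 5′ end averaged 10.60, 10.86 and 10.70 on the Ctx arrays, 8.56, 9.27 and 9.37 on the Hip arrays, and 9.41, 9.41 and 9.66 on the Amg arrays. These PSRs were highest in Ctx, and all 9 were called. PSR number 14, PSR1200009505.mm.1, reversed the order, with 6.58, 6.99 and 6.54 in Ctx, 9.57, 9.29 and 9.37 in Hip, and 8.27, 8.45 and 8.63 in Amg (index difference Hip over Ctx 2.52 ± 0.17, adjusted p = 0.00019). PSRs 15 to 18 averaged 12.90, 12.72 and 12.94 in Ctx against 14.08, 14.12 and 14.07 in Hip and 13.10, 13.24 and 13.74 in Amg. Compared with Ctx, Hip was thus lower over the first of these stretches and higher over the other. In DZP, PSRs 5 to 13 averaged 10.75 in Ctx and 9.40 in Hip, and PSRs 15 to 18 averaged 12.88 and 14.12.

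Junctions of Rapgef5 split the same way, with 8 called at least 1 higher on the log2 index and 7 at least 1 lower in Hip than in Ctx. JUC1200005260.mm.1 read 12.88 in Ctx, 10.86 in Hip and 11.54 in Amg, whereas JUC1200005264.mm.1 read 7.97, 10.33 and 8.27. The joint test in DZP called the former (adjusted p = 0.019) but not the latter (adjusted p = 0.87). It called all of the lower junctions and only a minority of the higher ones. Among genes of even level, 145 had junctions called in both directions, each by at least 1 on the log2 index, in the same pair of regions. Besides Rapgef5, these included Anks1b (3 higher and 9 lower in Hip than in Ctx), Camta1 (3 and 8 in Amg against Ctx) and Rbfox1 (3 and 3 in Amg against Ctx).

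Anks1b and Rbfox1 changed over several PSRs as well. Anks1b encodes AIDA-1, a postsynaptic protein, and 32 of its 72 PSRs were called. PSRs 3 to 22 from the 5′ end averaged 10.50 in Ctx, 9.68 in Hip and 10.11 in Amg, and PSRs 29 to 50 averaged 11.49, 12.06 and 12.04. PSR1000008304.mm.1 read 10.22, 10.41 and 10.21 in Ctx against 8.43, 8.31 and 9.25 in Hip (index difference 1.74 ± 0.20, adjusted p = 0.0020). Rbfox1, itself a splicing regulator of neurons, had 16 of 30 PSRs and 15 of 27 JUCs called. Its PSR1600000481.mm.1 read 8.30, 8.12 and 8.01 in Ctx, 8.98, 8.96 and 9.04 in Hip, and 10.05, 9.57 and 9.77 in Amg, and the regions did not overlap (index difference Amg over Ctx 1.98 ± 0.17, adjusted p = 0.00052). PSRs 3 to 5 from the 5′ end averaged 10.73 in Ctx, 11.52 in Hip and 11.97 in Amg, and PSRs 17 to 19 averaged 14.77, 14.73 and 13.73. Amg was thus the highest near the 5′ end and the lowest farther down. The stretches of Rapgef5, Anks1b and Rbfox1 were chosen after their values were seen. The named PSRs of Anks1b and Rbfox1 had the same order in DZP without passing its test (adjusted p = 0.086 and 0.060).

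**Figure D3:**
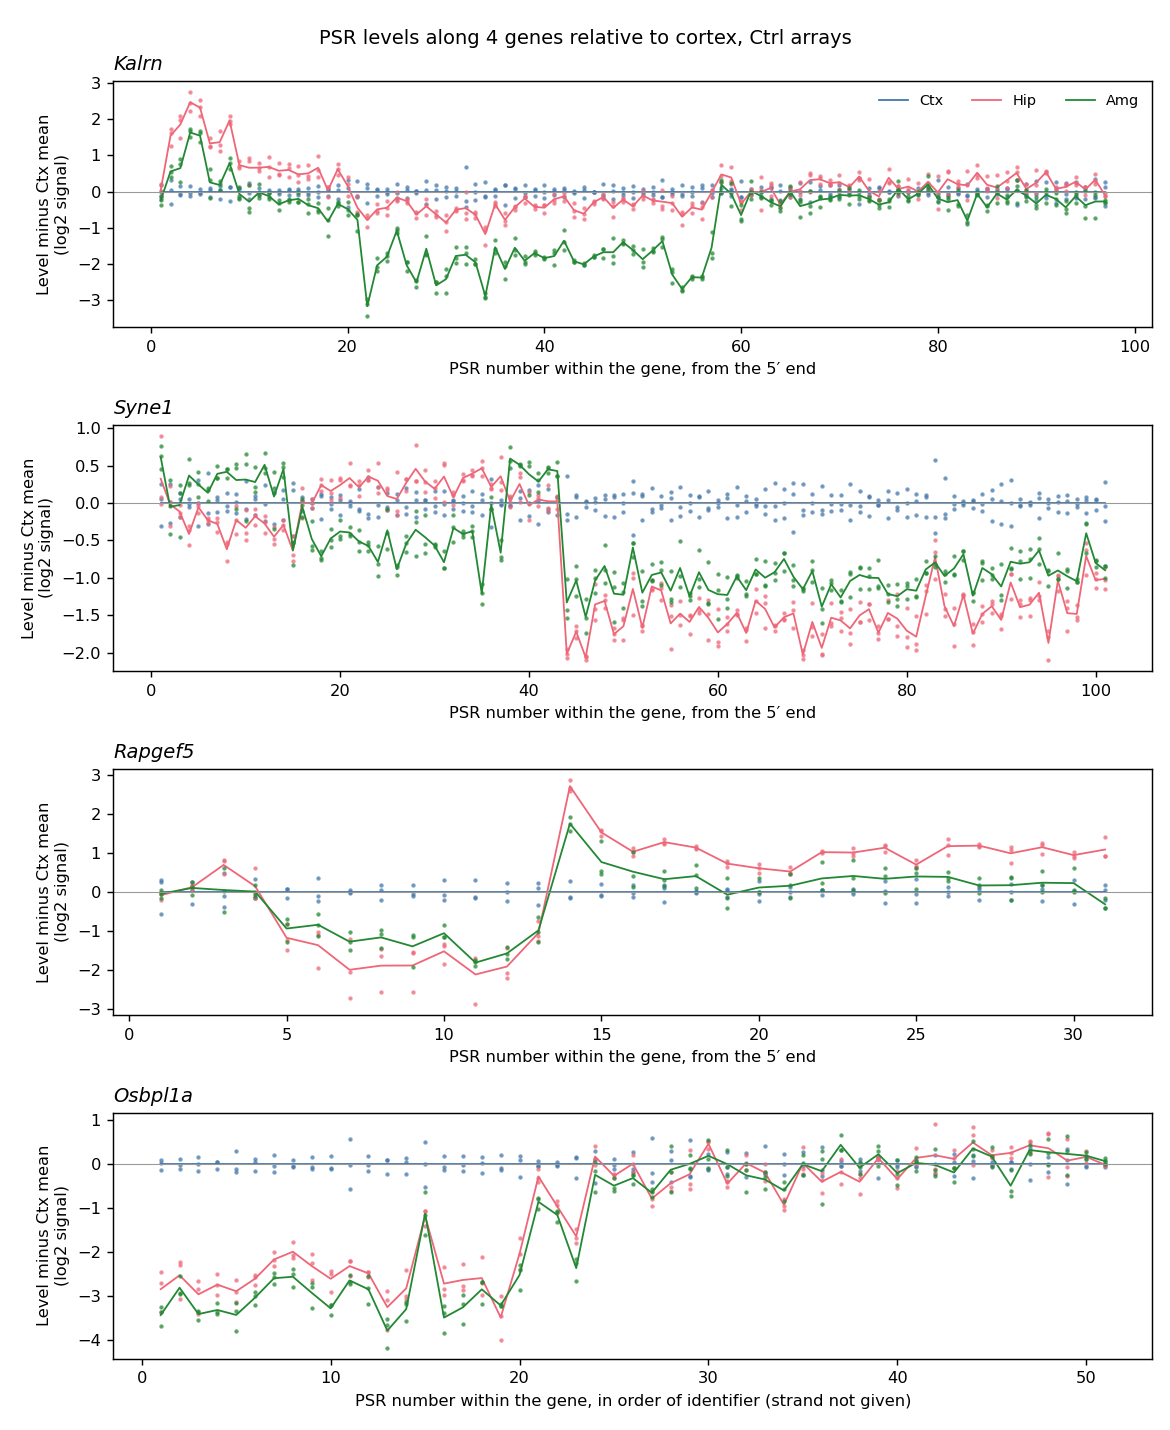
Level of each PSR minus its mean on the Ctx arrays (log2) along Kalrn, Syne1, Rapgef5 and Osbpl1a, with a point per Ctrl array and a line through the mean of each region (n = 3). Rows of neighbouring PSRs shift together, as in Kalrn PSRs 22 to 56, which average 12.19 in Amg against 14.13 in Ctx.

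The longest rows of neighbouring PSRs that differed together lay in genes outside the rule for naming. Kalrn, Syne1 and Osbpl1a are given here after their values were seen, as a description with no test. Kalrn encodes kalirin, a postsynaptic guanine nucleotide exchange factor with many isoforms, and had 56 of 97 PSRs and 34 of 76 JUCs called. PSRs 22 to 56 from the 5′ end averaged 14.04, 14.20 and 14.15 in Ctx, 13.75, 13.66 and 13.64 in Hip, and 12.15, 12.15 and 12.26 in Amg. PSRs 2 to 8 averaged 9.91, 10.06 and 10.00 in Ctx, 11.95, 11.62 and 11.91 in Hip, and 10.63, 10.87 and 10.87 in Amg. The end of the gene was closer to level, with 10.43 in Ctx, 10.60 in Hip and 10.20 in Amg over PSRs 57 to 97. Amg was thus low in the middle of the gene, and Hip was high near its start. The same stretches averaged 14.14, 13.60 and 12.10 (PSRs 22 to 56) and 10.29, 11.81 and 10.70 (PSRs 2 to 8) in the Ctx, Hip and Amg of DZP mice.

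Syne1 encodes nesprin-1, a very large protein of the nuclear envelope with short neuronal isoforms, and had 69 of 101 PSRs called. PSRs 44 to 101 from the 5′ end averaged 12.98, 13.12 and 13.04 in Ctx, 11.48, 11.59 and 11.63 in Hip, and 11.97, 12.12 and 12.04 in Amg. PSRs 16 to 37 were highest in Hip, at 12.91, 13.03 and 12.90, against 12.61, 12.70 and 12.80 in Ctx and 12.16, 12.13 and 12.27 in Amg. PSRs 38 to 43 were highest in Amg, at 12.38 on average, against 11.94 in Ctx and 11.99 in Hip. Each region was thus the highest in a different stretch of this gene. The index sums to 0 over the PSRs of a gene, so a lower level of the many 3′ PSRs in Hip raises the Hip index of all others, and levels are given here for that reason.

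Osbpl1a, another gene of the oxysterol-binding family, was read at 2 distinct levels. PSRs 1 to 20 in order of identifier averaged 14.59, 14.79 and 14.70 in Ctx, 11.86, 12.13 and 12.41 in Hip, and 11.54, 11.77 and 11.79 in Amg. PSRs 21 to 51 averaged 7.03 in Ctx, 6.90 in Hip and 6.84 in Amg. The regions were far apart in the bright stretch and close in the dim one, in which 26 of 31 PSRs were nevertheless called on the index, since the gene mean holds both stretches. In DZP, PSRs 1 to 20 averaged 14.65 in Ctx, 12.28 in Hip and 11.80 in Amg.

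Runs of at least 3 neighbouring PSRs that were called in the same direction in a pair of regions numbered 739 in 356 genes, the longest with 28 PSRs in Syne1. In genes of even level there were 38 runs in 24 genes, of which the longest held 11 PSRs of Anks1b that were lower in Hip than in Ctx. By their place within the gene, 19 of these runs lay before its middle and 14 after it. Rapgef5, Rbfox1 and Zmynd8 held runs in both directions in the same pair of regions.

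Called PSRs were more frequent near the 5′ end. PSRs of 4660 genes with a known strand were ordered from the 5′ end by identifier and divided into 5 bins of equal size per gene. In bin 1, 12.3% of PSRs were called, against 5.75%, 5.13%, 5.21% and 4.79% in bins 2 to 5. In genes of even level the shares were 5.22% in bin 1 and 1.86% in bin 5, and with probe set levels of at least 8 and under 16 they were 5.25% and 1.83%. Genes of even level with 1 RefSeq start in the promoter table (2640 genes) had 4.49% called in bin 1, and those with 2 or more starts (773 genes) 7.53%. In bin 5 the shares were 1.71% and 2.33%. Genes with 2 or more starts thus had the higher share in each bin, and bin 1 was the highest in both groups. The PSRs of a gene are not independent of each other, so these shares are a description without a test.

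**Figure D4:**
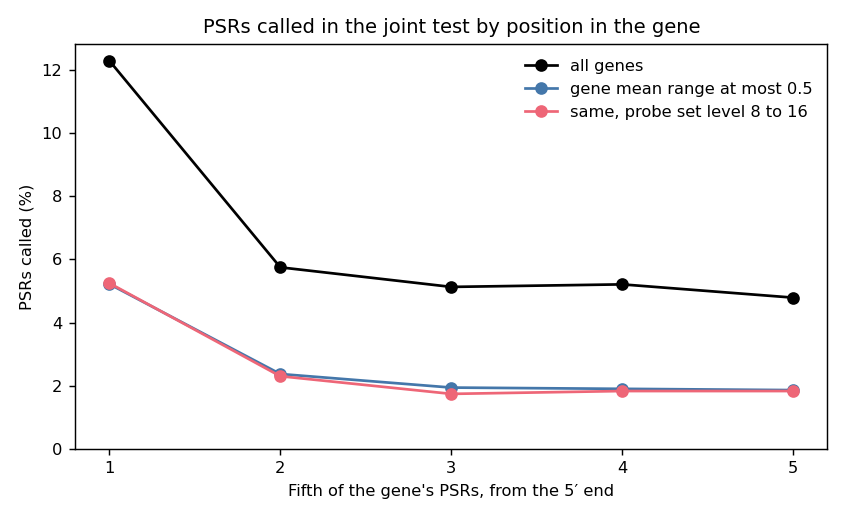
Percent of PSRs called in the joint test by place in the gene, in 5 bins from the 5′ end, for all ordered genes, for genes whose mean ranged over at most 0.5, and for the PSRs of those genes with a level of at least 8 and under 16. Bin 1 is the highest in each line, at 12.3%, 5.22% and 5.25%.

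Single PSRs stood out in several genes of even level. Hat1 encodes a histone acetyltransferase, and its PSR0200008359.mm.1 read 9.33, 8.88 and 8.92 in Ctx, 12.96, 12.43 and 12.25 in Hip, and 11.08, 11.29 and 11.15 in Amg. The 3 regions were separate, with Hip highest, while the gene mean was 8.09, 8.22 and 8.32 (index difference Hip over Ctx 3.38 ± 0.20, adjusted p = 0.00014). A PSR of Mtor, the kinase of the mTOR complexes, was low in Amg, with 11.26, 11.42 and 11.95 against 14.29, 14.19 and 14.41 in Ctx and 14.18, 13.61 and 14.52 in Hip. It was the only called PSR of 63 in Mtor and did not pass the test in DZP (adjusted p = 0.067). A PSR of Rsph3a, a radial spoke protein gene, was also low in Amg, with 9.95, 9.40 and 10.58 against 12.56, 11.92 and 12.58 in Ctx. The Ctrl Hip arrays overlapped those of Ctx for both genes. On the DZP arrays the index of the Mtor PSR was 0.34, -0.12 and 4.38 in Hip, against 0.30, 0.52 and 0.35 in Amg. That of the Rsph3a PSR, which passed the DZP test (adjusted p = 0.044), was -0.29, -0.35 and 2.90 in Hip, against -0.29, -0.15 and -0.29 in Amg. At both PSRs, DZP Hip 1 and 2 were thus near Amg and DZP Hip 3 was not, so the place of Hip varied between arrays. Rsph3a has a close copy, Rsph3b, that its probes may share.

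Some of the widest differences rested on arrays that scattered. For Ralgapa1, which encodes a subunit of a GTPase-activating protein for Ral, the PSR1200012191.mm.1 read 10.32, 12.42 and 9.83 in Ctx, 3.86, 3.93 and 5.40 in Hip, and 8.93, 6.78 and 3.32 in Amg. The index range of 6.35 ± 1.19 was the widest of the named PSRs, but 2 Hip arrays were below the background mean, the Amg arrays spread from 3.32 to 8.93, and the DZP test gave an adjusted p of 0.21. For Pigq, an enzyme of GPI anchor synthesis, the Amg arrays at 15.03, 14.67 and 15.14 were above all others, while a Ctx array at 11.91 stood above the other Ctx arrays at 8.39 and 8.86. Pigq was called in DZP, with a different order of regions. For Taf1d, a factor of ribosomal RNA transcription, Ctx read 11.89, 11.20 and 10.88 and the other arrays 5.88 to 8.48, but DZP gave an adjusted p of 0.80. PSRs of Fam149b and of Tpp2, a peptidase gene, had a difference of the opposite sign in DZP (adjusted p = 0.58 and 0.97).

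For another group of named probe sets the gene moved by more than the probe set. Of the 53 named probe sets with an index range of 1 or more, the gene mean moved by more than the probe set in 14. Penk, which encodes the opioid precursor proenkephalin, had gene means of 8.67 in Ctx, 8.04 in Hip and 12.11 in Amg, but its PSR0400017996.mm.1 read 9.50, 9.79 and 10.05 in Ctx, 9.73, 9.27 and 9.71 in Hip, and 9.70, 10.12 and 9.47 in Amg. The 3 regions overlapped at this PSR, and the index difference of 3.87 ± 0.23 between Hip and Amg came from the gene mean. Shisa6 (an AMPA receptor auxiliary protein, gene means 8.43, 12.41 and 9.94), Kcnh5 (a potassium channel, 12.96, 8.72 and 10.06) and Gria1 (an AMPA receptor subunit, 12.60, 14.87 and 14.32) had PSRs within 8.47 to 9.32, 8.61 to 9.96 and 9.57 to 10.06. The named PSRs of Nnat, Htr2c, Cpne9, Gabra3, Gabra5 and Kcnh7 and the junctions of Cpne9 and Car10 were of the same kind. The levels of these probe sets differed by at most 1.33 between the regions of the index range. A Slc44a5 junction differed by 2.10 itself while its gene mean differed by -2.34. The Hap1 junction read 17.60 to 18.40 on all arrays, in the range of 16 and more in which signals may be at the ceiling, so its level shows no more than that it was bright in each region.

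Gabra3 and Gabra5 encode alpha subunits of GABA-A receptors. The gene mean of Gabra5 was 11.90 in Ctx, 14.61 in Hip and 12.80 in Amg, and the gene mean of Gabra3 was 12.38, 10.59 and 12.95. Their named PSRs read 10.33 to 11.24 (Gabra5) and 10.12 to 11.55 (Gabra3) over all 9 arrays. In the list of GABA receptors and gephyrin, 25 of 275 PSRs and 25 of 186 JUCs were called (10.8%, against 8.21% of all probe sets), and 12 of 13 genes had a gene mean that differed among regions, against 64.5% of all genes.

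Gene lists differed in their share of calls. In the receptor, channel, adhesion, scaffold and cytoskeletal lists the share was lower where only genes of even level were counted. Postsynaptic scaffold and kinase genes had 255 of 1193 PSRs and 240 of 896 JUCs called (23.7%, and 11.2% in genes of even level against 4.14% of all such probe sets). Kalrn with 56 PSRs and Camk2d with 34 held many of them. Voltage-gated channels had 178 of 1157 PSRs and 229 of 1013 JUCs called (18.8%, and 4.82% in genes of even level), led by the calcium channel genes Cacna1h with 21 and Cacnb4 with 19 PSRs. Glutamate receptors reached 15.7% and 8.29%, and synaptic adhesion genes 14.8% and 8.04%. Cytoskeletal genes were at 9.06% and 7.28%, and astrocyte genes at 7.25% and 4.40%. The shares in genes of even level rest on 11 scaffold, 6 channel, 4 glutamate receptor, 13 adhesion, 25 cytoskeletal and 11 astrocyte genes. Probe sets of a gene are not independent of each other, so these shares are a description of few genes. Housekeeping genes had 3 of 217 probe sets called (1.38%). The median index range was 0.48 for the scaffold list and 0.43 for the channel list, beside 0.35 over all probe sets.

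The region with the highest index is given by list, beside the 36.4% in Ctx, 35.7% in Hip and 27.9% in Amg of all calls. Called probe sets of the glutamate receptor list were highest in Ctx in 34, in Hip in 52 and in Amg in 26 cases. The scaffold list was more even, with 176 in Ctx, 155 in Hip and 164 in Amg, and the cytoskeletal list had 113, 116 and 68. In the adhesion list 109 were highest in Ctx, 134 in Hip and 76 in Amg, and in the channel list 141, 146 and 120.

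The gene means of splicing regulators differed among regions in 20 of 34 (limma moderated F test), which is no more than the 64.5% of all genes. Of these 20, 13 were highest in Amg, 4 in Ctx and 3 in Hip, while of the 4413 genes called in all, 37.3% were highest in Amg, 40.9% in Ctx and 21.8% in Hip. Nova1 had gene means of 11.46 in Ctx, 10.35 in Hip and 11.23 in Amg (adjusted p = 6.5e-05), and Khdrbs3 of 11.39, 11.58 and 10.55 (adjusted p = 2.1e-06). Celf4 was highest in Amg, with 13.33 against 12.26 in Ctx and 12.50 in Hip, and so was Ptbp2, with 11.73 against 11.14 and 11.43. Rbfox3, known as the neuronal marker NeuN, was highest in Ctx, with 12.49 against 11.85 in Hip and 11.68 in Amg. Rbfox1 differed less, with 13.17, 13.11 and 12.84 (adjusted p = 0.015), and Srrm4, with 8.77, 8.79 and 8.61, was not called (adjusted p = 0.10). On the index, 53 of 850 PSRs and 68 of 571 JUCs of the regulators were called (8.52%), close to the share of all probe sets. In the 25 regulators of even level the share was 8.32%, against 4.14% of all probe sets of such genes. Rbfox1, a gene of even level, held 16 of the called PSRs and 15 of the called JUCs. A Celf2 PSR was the other regulator PSR named by the rule. It read 14.40, 14.45 and 13.94 in Ctx and 16.60, 15.76 and 16.12 in Hip. Its mean was 16.03 in Amg, where signals may be at the ceiling.

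Other genes of even level with many called PSRs had smaller differences. Rabgap1l, a Rab GTPase-activating protein gene, had 14 of 38 PSRs called, and its named PSR differed by 1.29 ± 0.16 between Hip and Ctx. Fgf13, which encodes a growth factor homologue that binds sodium channels, had 6 of 18 called. Its named PSR read 10.18, 10.12 and 10.27 in Ctx, 11.22, 11.18 and 10.96 in Hip, and 9.52, 9.54 and 9.61 in Amg, so that the regions were separate. Psd, a gene of an Arf exchange factor, had 10 of 22 called, with a widest difference of 1.00 ± 0.17 between Amg and Hip. The named PSRs of Cxcl12 and Gabarap differed by 1.12 ± 0.23 and 1.07 ± 0.24 and lost their call when single arrays were left out. Ntrk2, the gene of the BDNF receptor TrkB, ranged over 0.54 and thus lay just outside the genes of even level, with 11 of 29 PSRs called. Its named PSR was at 13.65, 13.81 and 13.86 in Ctx, 12.55, 12.28 and 12.82 in Hip, and 12.36, 12.91 and 12.01 in Amg, with Ctx above both other regions.

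In the oligodendrocyte list 31 of 217 PSRs and 23 of 173 JUCs were called (13.8%), and in the astrocyte list 13 of 249 and 17 of 165 (7.25%). Myelin basic protein (Mbp) had 9 of 22 PSRs called, and its named PSR read 12.94, 13.87 and 13.92 in Ctx, 16.55, 16.08 and 15.99 in Hip, and 14.75, 15.74 and 13.82 in Amg. Its Hip arrays lay above all others, beside a gene mean of 13.02 in Hip and 12.12 in Ctx, and its call was lost when single arrays were left out. For Enpp2, the gene of autotaxin, the named PSR read 13.49 on a Hip array and 13.35 on an Amg array and 8.96 to 10.84 on the other 7 arrays. Enpp2 is also expressed in choroid plexus, and the choroid plexus marker mean varied between arrays in Hip and Amg as given above; its part in this value was not tested. Its index difference was 1.20 ± 0.26, and it was not called in DZP (adjusted p = 0.32). In the astrocyte list, the named PSR of the glutamate transporter gene Slc1a2 was lowest in Amg, with 8.79, 8.97 and 8.04 against 9.77 to 10.32 elsewhere, and was not called in DZP (adjusted p = 0.45). That of Slc4a4, a bicarbonate transporter gene, was highest in Ctx, with 9.40, 9.69 and 9.58 against 8.08 to 8.74 in Hip.

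The named probe sets were also looked up in the DZP mice. Of the 54 named probe sets in 50 genes, 40 were called in DZP, 34 of them with the same highest and lowest region. The widest Ctrl difference had the same sign in 52. Over all Ctrl calls, 31.7% were called in DZP and 91.2% had the same sign. The named probe sets were chosen mostly for a wide index range. In 14 of the 53 with a range of 1 or more the gene mean moved by more than the probe set.

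**Figure D5:**
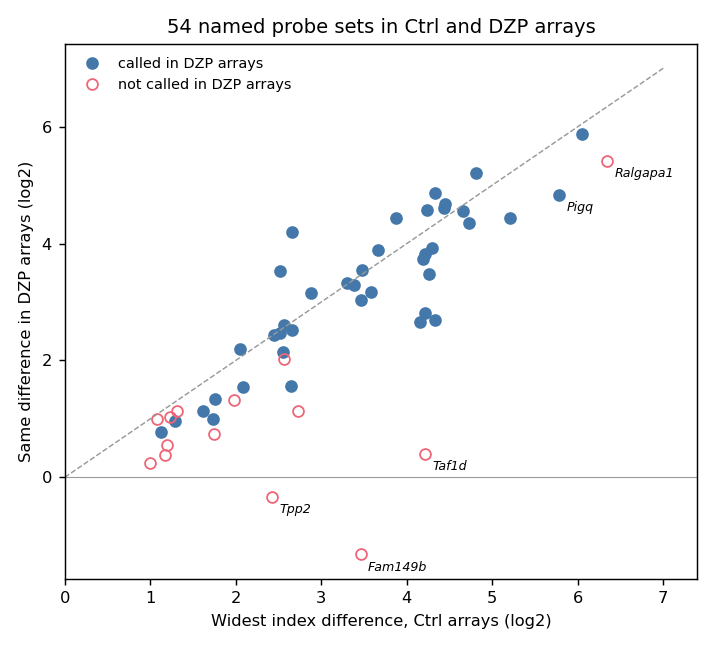
Widest difference of the splicing index between a pair of regions for the 54 named probe sets on the Ctrl arrays (x axis, log2) and the same difference on the DZP arrays (y axis, log2), with filled points for probe sets called in DZP and a dashed line of equality. Points of 52 probe sets lie above 0 on the y axis, and Taf1d, Tpp2 and Fam149b fall far below the line.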

How the data were processed

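The deposited exon-level values are log2 signal intensities that the authors made with Affymetrix Expression Console 1.4.1, per the submitters' processing notes; summarisation and normalization between arrays are not given in the sources used here. They were used without further scaling. The 6607 control probe sets were left out, and gene symbols were those that the array annotation gives. Depth has no meaning for arrays, and the number of arrays limits the precision. The splicing index was fitted with lmFit and eBayes of limma (3.58.1; R 4.3.3, package data.table, version 1.17.8) on the values of 9 Ctrl arrays grouped by region, with 6 residual and 3.64 prior degrees of freedom, and checked on simulated data. Benjamini-Hochberg adjustment ran over 255105 probe sets (735 repeat the values of another), or over 6837 genes for gene means. Strand came from the RefSeq promoter table of GRCm38.p6, and the order of PSRs from their identifiers: 99.947% of the numbers name the RefSeq chromosome, and along 38 chromosome strands the median Spearman rho with the RefSeq start was 0.999. Alternatives were another centre for the index, other filters, a block, left-out arrays, the methods' test and criteria, and genes of even level. The genes, lists and tests were chosen with earlier results of these data known.

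Named probe sets were called ones with separate arrays between the highest and the lowest region and a level of at least 8 in the highest region. They were the 12 PSRs and the 12 JUCs with the widest index range, the 12 widest PSRs in genes of even level, the widest PSR of the 8 genes of even level with the highest share of called PSRs, and the 2 widest PSRs of each neuronal or glial list, 1 per gene, without predicted genes, clone names and multicopy families. Gene-level samples entered only as an alternative centre.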

Additional observations from a re-analysis of the deposited data

How the results depend on the processing

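Fitting the genes of even level alone gave 1776 calls in the joint test in 1242 genes, 385 for Hip against Ctx, 1724 for Amg against Ctx, 804 for Amg against Hip, and 328 in the DZP arrays. A narrower set chosen after seeing the data, genes of even level with probe set levels of at least 8 in each region and under 16, gave 3448 calls in 2060 genes, and 952, 2122 and 1912 in the pairs in the same order. The study's criteria gave 34074 calls, and 21594, 23311 and 19713 in the pairs. The methods' unmoderated test after Benjamini-Hochberg adjustment gave 10555, and 6871, 7268 and 3601. Arrays of equal number did not deviate together across regions (r from -0.065 to 0.078, against -0.096 to 0.069 for other arrays), so the numbers only name the arrays. With the number as a replicate block, 14839 probe sets were called in the joint test and 5722 for Amg against Hip. Leaving out single arrays gave 12111 (without Ctx 3) to 15592 (without Hip 3) joint calls in 3709 to 4238 genes, 5537 (without Hip 1) to 11627 for Hip against Ctx, 6511 (without Ctx 3) to 11994 for Amg against Ctx, 2905 (without Hip 1) to 7179 for Amg against Hip, and 3909 to 4345 called gene means. In the DZP arrays the range was 4061 (without Ctx 1) to 18464 (without Hip 3). The cause of these shifts was not tested, beyond the fewer arrays and genes that these settings hold. Counts under the remaining alternatives stayed within 1.5 times. Of the 54 named probe sets, 46 were called under each setting run for them (the block, all 18 arrays, the gene-level value where it was matched, quantile normalization, a variance trend and left-out arrays), no direction was reversed, and Ralgapa1, Fam149b, Tpp2, Cxcl12, Gabarap, Mbp, Enpp2 and Slc1a2 lost their call under at least 1. Of the 24 named probe sets in genes of even level, 18 were called when these genes were fitted alone, a setting chosen after seeing the data, and the other 6 (Slc1a2, Tpp2, Ralgapa1, Fam149b, Cxcl12 and Gabarap) are among the 8 just named. Signal near the background mean of 4.03 to 4.15 or at 16 and above limits what an index can show.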
